A study of Mus musculus with 12 samples.

Results

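Group 2 innate lymphoid cells (ILC2s) kept for 24 h with eosinophils were compared with ILC2s kept for the same time on their own. The comparison used 6 of the 12 RNA-seq libraries of a mouse study, 3 in each group. Its members were all genes that passed a low-count filter in these 6 libraries, 14438 of the 49315 genes in the table. Both groups came from C57BL/6 mice. Lung ILC2s were enriched by removal of lineage-positive cells and by flow sorting, grown with IL-33, IL-25, IL-2 and IL-7, kept for 48 h in IL-2 and IL-7 only, and washed. One group then stayed alone in medium without cytokines, and the other shared that medium with eosinophils. These eosinophils came from the blood of C57BL/6 mice as the fraction left after B220 and CD90 beads and had spent 24 h with IL-33 before being washed. Both cell types were separated by flow cytometry before RNA extraction. The ILC2s were thus cells expanded in culture, and those of both groups had met IL-33 before. Since no group held eosinophils that had not met IL-33, effects of the eosinophils and of this pretreatment cannot be told apart. The labels give neither cells per culture nor whether the ILC2s kept alone went through the second sort. They do not say that replicates came from separate mice or cultures, so the p-values reflect the spread among these libraries, and that spread may be technical.

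ILC2s are tissue-resident lymphocytes of lung, gut, skin and fat that lack rearranged antigen receptors. They respond to epithelial alarmins such as IL-33 and IL-25, to IL-2 family cytokines and to neuropeptides and lipid mediators, and secrete IL-5, which feeds eosinophils, and IL-13, which acts on epithelium, smooth muscle and macrophages. GATA3 maintains their identity, and activation adds factors such as IRF4 and turns resting cells with small metabolic demand into dividing, secreting ones.

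Library totals ran from 16769929 to 22928961 counts, where 3 counts of a gene correspond to 0.131 to 0.179 CPM, the usual scale of a gene's counts relative to the library total. Values below are CPM scaled by the TMM method, log2 fold changes are with eosinophils over alone, and "rose" and "fell" are used only of genes past a Benjamini-Hochberg adjusted p of 0.05 in edgeR's quasi-likelihood test on all 14438 genes. The 17 ILC2 markers summed to 11200 to 11300 CPM in ILC2s alone and 9330 to 9880 CPM in ILC2s with eosinophils by library totals. Of the 16 tested, 5 rose and 9 fell, or 5 and 11 with library totals in place of TMM. One of the falls was in Il7r, from 1655 to 282 CPM on the TMM scale. The 12 eosinophil markers summed to 4.29 to 4.54 CPM alone and 3.87 to 5.05 CPM with eosinophils, against 9340 to 12200 CPM in the eosinophil libraries, and the granule gene Prg3 was at 0 in both ILC2 groups. Macrophage markers summed to 2.62 to 3.12 and 2.5 to 3.38 CPM, mast cell and basophil markers to 1.55 to 2.27 and 1.41 to 2.05 CPM, and neutrophil markers to at most 0.0455 CPM. The sums of T cell markers (207 to 221 against 164 to 177 CPM) and B cell markers (1.81 to 2.09 against 0.62 to 0.819 CPM) were lower with eosinophils, and 4 markers of NK cells and other ILCs summed to 0.179 to 0.681 and 0.524 to 0.91 CPM. Of the 6 T cell markers tested, 3 rose and 1 fell, or 2 and 3 with library totals in place of TMM. In bulk RNA, fewer cells of a type and less RNA per cell cannot be told apart. The genes for the CD4 and CD8 co-receptors were at or near 0 in both groups, Cd8a at 0 alone, and most of the T cell sum came from Trbc2 (105 ± 3.21 CPM alone and 69.1 ± 3.38 CPM with eosinophils) and Cd3g (82.2 ± 2.85 CPM alone and 95.7 ± 4.91 CPM with eosinophils), which ILC2s are known to transcribe.

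Il13, Lif, Irf4 and Tnfrsf8 mark the response and stand for 4 roles, an effector cytokine, a cytokine of the IL-6 family, a transcription factor of activated lymphocytes and the receptor CD30. Their promoters are printed because all 4 genes moved together, as the 250 bases before the transcription start in RefSeq's GRCm38.p6 table, read on the gene's strand. Capitals mark the letters of searched motifs. In Il13 they mark the binding motif of GATA factors, AGATAA, and a TATA box, for which the letters TATAAA were searched and found on both strands with overlap. In Irf4 they mark a TATA box, in Lif and Tnfrsf8 the AP-1 motif TGANTCA, and in Tnfrsf8 also the E-box CACGTG. Il13 is at chr11:53634703-53634952 on the minus strand, Lif at chr11:4257318-4257567 on the plus strand, Irf4 at chr13:30748983-30749232 on the plus strand and Tnfrsf8 at chr4:145315165-145315414 on the minus strand.
Il13: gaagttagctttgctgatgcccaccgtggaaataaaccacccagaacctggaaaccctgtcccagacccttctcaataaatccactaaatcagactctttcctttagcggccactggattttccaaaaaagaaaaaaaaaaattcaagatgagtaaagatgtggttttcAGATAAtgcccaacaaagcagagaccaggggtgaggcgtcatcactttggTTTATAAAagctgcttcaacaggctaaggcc
Lif: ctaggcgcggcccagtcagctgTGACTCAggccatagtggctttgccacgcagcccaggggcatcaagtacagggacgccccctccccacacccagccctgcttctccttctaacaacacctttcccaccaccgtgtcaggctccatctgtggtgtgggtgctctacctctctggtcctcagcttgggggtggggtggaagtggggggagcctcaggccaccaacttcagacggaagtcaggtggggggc
Irf4: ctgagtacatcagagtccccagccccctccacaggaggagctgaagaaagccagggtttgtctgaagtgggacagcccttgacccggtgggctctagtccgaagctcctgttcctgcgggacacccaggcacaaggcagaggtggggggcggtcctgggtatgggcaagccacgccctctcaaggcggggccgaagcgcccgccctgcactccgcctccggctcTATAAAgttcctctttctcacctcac
Tnfrsf8: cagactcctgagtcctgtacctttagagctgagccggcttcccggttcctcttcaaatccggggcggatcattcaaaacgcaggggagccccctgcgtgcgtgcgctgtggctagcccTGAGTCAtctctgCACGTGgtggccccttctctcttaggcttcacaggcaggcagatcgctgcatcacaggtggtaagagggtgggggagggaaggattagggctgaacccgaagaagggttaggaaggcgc
The GATA letters of Il13 lie at -81 to -76 and its TATA letters at -31 to -24, the AP-1 letters of Lif at -228 to -222 and the TATA letters of Irf4 at -26 to -21. In Tnfrsf8 the AP-1 letters lie at -132 to -126 and the E-box, which contains ACGTG on both strands, at -119 to -114. TTTGAA, a motif of cell cycle promoters, also occurs there and is not in capitals. It lies on the strand opposite to the printed one, at -199 to -194 and -179 to -174. Over the windows of 300 bases of all 32851 promoters in that table, 11.2% held AGATAA, 13.6% TATAAA, 7.81% TGANTCA and 7.15% CACGTG on either strand. A match is a description of letters and not of a bound site.

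Il13 (ENSMUSG00000020383, chromosome 11, 53631324 to 53634702, minus strand of mm10) stood at 36.9, 38.6 and 36.8 CPM alone and 1131, 1184 and 1211 CPM with eosinophils. Both groups were tight and far apart, and the gene had 37.5 ± 1.02 CPM alone and 1175 ± 41 CPM with eosinophils (SD, n = 3; log2 fold change 4.97 ± 0.047, edgeR adjusted p = 1.7e-33). Lif (ENSMUSG00000034394, chromosome 11, 4257557 to 4272514, plus strand of mm10), whose product acts on stromal, muscle and stem cells, stood at 8.23, 8.75 and 7.82 CPM alone and 787, 843 and 742 CPM with eosinophils (log2 fold change 6.58 ± 0.062, edgeR adjusted p = 1.7e-33). Irf4 (ENSMUSG00000021356, chromosome 13, 30749226 to 30766976, plus strand of mm10) stood at 2.04, 1.66 and 2.11 CPM alone and 400.1, 378 and 356 CPM with eosinophils (log2 fold change 7.59 ± 0.075, edgeR adjusted p = 3.5e-33). Tnfrsf8 (ENSMUSG00000028602, chromosome 4, 145267137 to 145315164, minus strand of mm10) stood at 1.25, 0.537 and 0.248 CPM alone and 629, 575 and 520.0 CPM with eosinophils (log2 fold change 9.82 ± 0.12, edgeR adjusted p = 7.5e-31). For each of the 4 genes every library with eosinophils lay above every library without, and the spread alone was widest relative to the mean for Tnfrsf8, where few reads were counted. Per kilobase of annotated exon, Il13 stood at 975, Lif at 182, Irf4 at 77.1 and Tnfrsf8 at 166 CPM per kilobase with eosinophils. On this scale Il13 was the most abundant of the 4 and Irf4 the least. The eosinophils themselves held little of 3 of them, with means of 2.72 and 0.265 CPM alone and with ILC2s for Lif, 3.09 and 1.75 for Irf4 and 0.214 and 0.0337 for Tnfrsf8, while Il13 stood at 120.4 and 22.5 CPM.

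**Figure D1:**
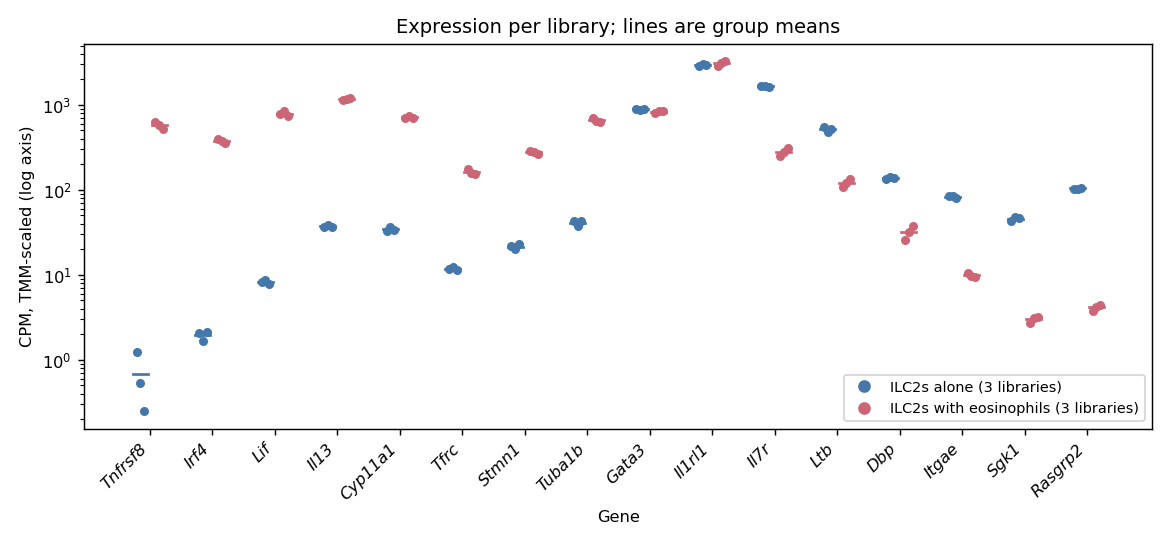
Expression in CPM, TMM-scaled, on a log axis for 16 genes in the 3 libraries of ILC2s alone (blue) and the 3 with eosinophils (red), with lines at the group means. Tnfrsf8 goes from a mean of 0.678 to 575 CPM while Gata3 stays near 887 and 833 CPM and Il7r drops from 1656 to 282 CPM.

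The response was wide. Of the 14438 genes, 10454 were called (72.4%), 5315 of them higher (36.8%) and 5139 lower (35.6%) with eosinophils, at a biological coefficient of variation of 4.71%. The median log2 fold change over all genes tested was 0.00293, and the middle 90% ran from -1.42 to 2.15. A test against a 2-fold change kept 1469 higher (10.2%) and 745 lower (5.16%), so 66.4% of these were higher. With library totals in place of TMM the median of all genes was -0.15, and the counts were 1240 and 1018 (54.9% higher). The libraries of the 2 groups did not overlap for 74.9% of all genes, in either direction. The share called grew with the level of a gene, from 27.9% of the 1204 genes under 1 CPM in the higher group to 90.6% of the 2914 genes at 100 CPM or more. The largest changes were mostly rises, with 186 called genes over a log2 fold change of 4 and 15 under -4. With 72.4% of all genes called, a list is described below by its counts, its median and the sizes of its members' changes, beside these values for all genes.

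The 15 largest rises and 15 largest falls were taken from called genes that averaged 8 CPM or more across the 6 libraries and had no overlap between groups, and they held genes of several roles. Beside the 3 markers Tnfrsf8, Irf4 and Lif, the rises held the checkpoint receptor gene Ctla4, the decoy IL-1 receptor gene Il1r2, the opioid precursor gene Penk, the epidermal growth factor receptor ligand gene Areg and the protease gene Mmp10. Mmp10 had 0, 0 and 1 counts alone and 836, 731 and 838 with eosinophils, for a ratio of 2180 (95% interval of counting 392 to 86300). P4ha3, of collagen prolyl hydroxylation, had 2, 1 and 0 counts alone and 405, 428 and 399 with eosinophils, for a ratio of 373 (127 to 1810). These 2 genes were close to silent alone, and the intervals cover counting error only. Myb, a transcription factor of progenitors and dividing blood cells, stood at 0.568, 0.161 and 0.207 CPM alone and 57.9, 58.1 and 47.8 CPM with eosinophils (log2 fold change 7.49), and at 14.4 and 29.5 CPM in eosinophils alone and with ILC2s, below the cocultured ILC2s. Uhrf1, which brings the maintenance DNA methyltransferase to newly copied DNA, stood at 3.12, 2.79 and 3.31 CPM alone and 160.1, 148 and 131 CPM with eosinophils (5.56). The helix-loop-helix repressor gene Msc stood at 0.114, 0.161 and 0.124 CPM alone and 45.1, 45.5 and 37.2 CPM with eosinophils (8.26). All 3 genes were low in each library alone and high in each library with eosinophils. Mgarp, of a mitochondrial protein, went from 0.0981 to 16.2 CPM (7.27), Tmem45a from 0.988 to 56.8 CPM (5.81) and Fam69c from 0.523 to 25.7 CPM (5.67). Fam69c, Myb, Penk and Msc share exon bases with another annotated gene, and the strand setting of the counting is not given in the sources used here, so their values are less certain.

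The falls were led by Cpne7, a calcium-dependent phospholipid-binding protein gene, at 78.4, 85.4 and 85.4 CPM alone and 1.86, 2.67 and 1.94 CPM with eosinophils (-5.27), and Fbxl21, an F-box protein gene known from work on clock proteins, at 17.5, 15.2 and 16.9 CPM alone and 0.802, 0.524 and 0.339 CPM with eosinophils (-4.89). Neither group overlapped the other. Rasgrp2 (-4.65), the activator of Rap1 for integrin function, Tbc1d4 (-4.19), a Rab regulator of glucose transporter traffic, Slc26a11 (-4.0), Sgk1 (-3.93), Card6 (-3.73) and St3gal6 (-3.67) followed. Itgae, the integrin chain CD103 that binds E-cadherin on epithelium, stood at 83.7, 83.6 and 80.5 CPM alone and 10.5, 9.69 and 9.53 CPM with eosinophils (-3.06). Mmp9, the gelatinase gene, fell from 15.9 to 1.39 CPM (-3.51), while eosinophils held 140.4 and 175 CPM alone and with ILC2s. Lpcat2, an enzyme of platelet-activating factor synthesis, fell from 161 to 17.7 CPM (-3.19) and stood at 604 and 687 CPM in eosinophils. Osgin1 fell from 57.8 to 7.17 CPM (-3.01) and stood at 97.3 and 106 CPM there. Like these 3 genes, Sgk1 stood higher in eosinophils (48.5 and 60.6 CPM) than in cocultured ILC2s (3.0 CPM). Of the 745 genes lower beyond 2-fold, 49.9% had a higher mean in eosinophils than in cocultured ILC2s. Also among the 15 were Ifi208 (-3.48) of the interferon-inducible HIN-200 family, whose members are similar, Kctd12 (-3.42) and the long noncoding gene B230217O12Rik (-3.6). Rasgrp2, Lpcat2, Cpne7, St3gal6, Kctd12 and B230217O12Rik share exon bases with another annotated gene and carry the same uncertainty. So do Chaf1a, Ptger1, Rad54b, Tuba1b, Mt2, Tnfrsf18, Bak1 and C030034L19Rik, described below, which share at least 25% of their exon bases with another gene.

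Of 29 tested cytokine and growth factor genes, 19 rose and 7 fell, 17 and 4 of them beyond 2-fold, with a median log2 fold change of 1.85. The rises reached past Il13. Osm, of the IL-6 family like Lif, rose from 31.9 to 175 CPM (2.45) and Il6 from 3.86 to 33 CPM (3.11). Mif, a macrophage-acting cytokine gene with many near-identical pseudogenes and so uncertain, rose from 45.6 to 347 CPM (2.93). Vegfa, the angiogenic factor, rose from 8.32 to 91.1 CPM (3.45), and Furin, the protease that matures many precursors, from 292 to 1371 CPM (2.23). Hbegf, a ligand of the same receptor as Areg, rose from 0.293 to 2.75 CPM (3.25), Tgfb3 from 1.4 to 5.41 CPM (1.91), Metrnl from 17.5 to 63 CPM (1.84) and the galectin gene Lgals1 from 349 to 934 CPM (1.42). Il10, an immunoregulatory cytokine, had 2, 1 and 0 counts alone and 229, 218 and 181 with eosinophils, for a ratio of 190 (95% interval of counting 64.8 to 925). Both Csf1 and Flt3l fell. Csf1, the macrophage growth factor, stood at 255, 244 and 253 CPM alone and 33.2, 34.3 and 39 CPM with eosinophils (-2.82). Flt3l, the growth factor of dendritic cells, stood at 192, 223 and 209 CPM alone and 68.6, 72.4 and 69.7 CPM with eosinophils (-1.57). In both genes the groups were far apart. Il16 (-0.92), Bmp2 (-2.72), Bmp7 (-0.46) and Il2 (-3.31) fell as well. Il4, the type 2 cytokine gene beside Il13, stood at 8.17, 7.62 and 8.93 CPM alone and 8.77, 6.71 and 8.23 CPM with eosinophils and was not called (-0.06, edgeR adjusted p = 0.678), with overlapping groups.

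Receptors of the TNF family split evenly, with 9 rises and 9 falls among 21 tested, and with library totals their median changed from 0.12 to -0.04. Below Tnfrsf8, the largest rise was in the costimulator gene Tnfrsf9 (4-1BB) at 1.99, 2.47 and 2.65 CPM alone and 43.4, 37.8 and 35.6 CPM with eosinophils (4.02), followed by Ltbr (from 0.206 to 0.968 CPM, 2.24), the TWEAK receptor gene Tnfrsf12a (1.7), Tnfrsf18 (GITR, from 53.4 to 161 CPM, 1.59), Tnfrsf4 (OX40, 1.35) and the TNF receptor gene Tnfrsf1b (0.96). The falls held Cd27 (from 11.3 to 1.92 CPM, -2.56), a costimulator of naive and memory lymphocytes, Tnfrsf21 (-1.44), Tnfrsf14 (-0.85), the RANK gene Tnfrsf11a (-0.78) and Tnfrsf25 (from 154 to 94.6 CPM, -0.7), the receptor of TL1A on ILC2s. Of 14 ligands 6 rose and 4 fell, or 5 and 5 with library totals. Both lymphotoxin genes fell, Ltb from 516 to 121 CPM (-2.09) and Lta from 17.2 to 2.82 CPM (-2.61), as did the RANK ligand gene Tnfsf11 (-1.42). The TRAIL gene Tnfsf10 rose from 112 to 371 CPM (1.72), the BAFF gene Tnfsf13b from 2.91 to 10.0 CPM (1.82) and the OX40 ligand gene Tnfsf4 from 3.29 to 8.88 CPM (1.42). The CD30 ligand gene Tnfsf8 was at 42.4 ± 0.884 CPM alone and 41.1 ± 1.27 CPM with eosinophils and did not pass the test, except with library totals (-0.20, edgeR adjusted p = 0.00495). The CD27 ligand gene Cd70 had 3 counts alone and 45 with eosinophils, for a ratio of 13.6 (95% interval of counting 4.37 to 68.6).

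Downstream of cytokine receptors, the feedback inhibitor gene Socs3 stood at 3.18, 3.81 and 3.52 CPM alone and 126, 152 and 147 CPM with eosinophils (5.34). It was low alone and high with eosinophils in every library. Socs1 (1.45) and Cish (1.45), also inhibitors, and the kinase genes Pim1 (from 196 to 486 CPM, 1.31) and Pim2 (from 43.9 to 182 CPM, 2.06), both targets of STAT signalling, rose. Of the signal carriers, Jak3, the kinase of the common gamma chain, rose from 442 to 1012 CPM (1.2), as did Stat5a (0.88), Stat5b (0.63) and Stat3 (0.81). Stat6 (from 256 to 177 CPM, -0.53), which carries IL-4 and IL-13 signals, Jak1 (-0.31), Tyk2 (-0.37), Socs5 (-0.49) and Socs6 (-0.52) fell. Over this list of 24 genes 12 rose and 7 fell, but 11 and 12 with library totals. The feedback genes of MAP kinases rose in 11 of 14 cases and fell in 2, with a median of 0.86. Dusp6, the phosphatase of ERK, rose from 26.9 to 99 CPM (1.88), the Ras pathway inhibitor gene Spry1 from 9.1 to 38 CPM (2.07) and Dusp4 from 0.310 to 2.14 CPM (2.74), whereas Dusp7 (-0.82) and Spry2 (-1.19) fell.

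Transcription factors of lymphocyte activation rose in 16 of 23 cases, 13 of them beyond 2-fold, and fell in 5, with a median of 1.23. Batf, the AP-1 partner of IRF4, stood at 29.9, 25.7 and 26.4 CPM alone and 225, 216 and 226 CPM with eosinophils (3.03). Prdm1, which encodes BLIMP-1 of effector lymphocytes, stood at 9.76, 8.91 and 9.56 CPM alone and 125, 127 and 116 CPM with eosinophils (3.7). Tox2 stood at 13.5, 11.8 and 14.6 CPM alone and 159, 159 and 157 CPM with eosinophils (3.57). All 3 were higher in each library with eosinophils. Nfil3, needed for the development of innate lymphoid cells, rose from 14.3 to 149 CPM (3.39), the plasma cell factor gene Xbp1 from 78.9 to 229.9 CPM (1.54), Hif1a from 244 to 573 CPM (1.23), Myc from 31.2 to 80.7 CPM (1.36) and Pparg, a regulator of ILC2 lipid use, from 124 to 219.9 CPM (0.83). Egr2 (3.46), Zbtb32 (3.3), Irf8 (1.48) and Nr4a1 (1.88) rose from low levels. Vdr (-1.02), Ikzf2 (-0.8), Ahr (-0.52), Nfatc1 (-0.36) and Rel (-0.33) fell.

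The factors that set ILC2 identity moved in both directions, by small amounts in some cases and beyond 2-fold in others. Gata3 stood at 899, 876 and 886 CPM alone and 811, 845 and 843 CPM with eosinophils (-0.09, edgeR adjusted p = 0.0268), a small fall that was lost in 5 alternatives. Il1rl1, the IL-33 receptor gene, stood at 2895, 2995 and 2967 CPM alone and 2898, 3095 and 3244 CPM with eosinophils, with overlapping groups, and was not called (0.06, edgeR adjusted p = 0.136). Id2, required by all innate lymphoid cells, was at 862 ± 8.48 CPM alone and 901 ± 71.4 CPM with eosinophils and did not pass, and its sign and that of Il1rl1 turned with library totals. Rora (from 613 to 477 CPM, -0.36), Bcl11b (-0.33), Ikzf1 (-0.41) and Runx3 (-0.23) fell by less than 1.5-fold, and Gfi1 (0.61), Cbfb (0.56) and Runx1 (0.35) rose by less than 2-fold. Larger changes came in Nfil3, named above as a factor of activation (3.39), Ikzf3 (from 111 to 320.0 CPM, 1.53) and Zeb2 (1.22), which rose, and in Ets1 (from 857 to 401 CPM, -1.1), Bach2 (-2.12) and Tcf7, which fell. Tcf7, whose product TCF-1 acts in progenitors and memory cells, stood at 65.5, 59.6 and 62 CPM alone and 7.12, 8.43 and 9.73 CPM with eosinophils (-2.88), with no overlap. Of 18 genes, 8 rose and 9 fell, 3 and 3 of them beyond 2-fold. Of all genes tested, 10.2% were higher and 5.16% lower beyond 2-fold.

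Genes of quiescence and egress fell in 18 of 22 tested cases and rose in 4, with a median of -1.10. Klf2, which maintains quiescence and homing receptors, stood at 13.3, 14.1 and 13.3 CPM alone and 3.61, 3.93 and 3.73 CPM with eosinophils (-1.85). Btg2, an antiproliferative gene, stood at 247, 246 and 246 CPM alone and 66.6, 68.9 and 72.8 CPM with eosinophils (-1.82). Tsc22d3, which encodes GILZ, stood at 93.3, 81.8 and 78.8 CPM alone and 15.9, 18.1 and 18.1 CPM with eosinophils (-2.28). Each was lower in all 3 libraries with eosinophils than in any library without. The related genes Btg1 (from 856 to 400.0 CPM, -1.1) and Klf3 (-2.09), the inhibitor of PI3 kinase Pik3ip1 (from 219.6 to 61 CPM, -1.85), the RNA decay factor gene Zfp36l2 (from 1194 to 429.8 CPM, -1.47), Foxp1 (-1.35), Lef1 (-1.92), Satb1 (-1.1) and the cell cycle inhibitor gene Cdkn1b (from 545 to 276 CPM, -0.98) fell with them. Txnip, which restrains glucose uptake, fell from 1635 to 721 CPM (-1.18). The 4 rises were in Id3 (1.9), the egress receptor gene S1pr1 (from 6.09 to 13.6 CPM, 1.16), Foxo1 (0.45) and Ccng2 (0.13, but -0.027 with library totals), so Klf2 and Foxo1, known activators of S1pr1, went in opposite directions.

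The circadian clock genes were lower together. Of 17 tested, 15 fell and 2 rose, with a median of -0.91, and 13 to 15 fell under every alternative run. The 2-fold test kept 8 of the falls, but 4 without ILC2_alone replicate 3, 5 without ILC2_with_EOS replicate 1 or 2, and 4 with DESeq2. Dbp, an output gene of the clock, stood at 134, 140.3 and 136 CPM alone and 26, 32.1 and 38 CPM with eosinophils (-2.09). Nr1d1, the repressor REV-ERB alpha, stood at 90.7, 83.9 and 86.1 CPM alone and 32.4, 33.3 and 35.4 CPM with eosinophils (-1.37). Per3 stood at 129.5, 147 and 153 CPM alone and 59.4, 64.1 and 69 CPM with eosinophils (-1.16). The groups did not overlap in any of these 3 genes. The output genes Tef (from 213 to 91.2 CPM, -1.23) and Hlf (from 761 to 483 CPM, -0.66), the repressor genes Per1 (-1.11), Cry1 (-0.43), Cry2 (-1.19) and Nr1d2 (-1.09), and the activator genes Clock (-0.91) and Arntl (-0.62) fell. Members of the activating and of the repressing arm thus fell. Per2 (from 7.03 to 10.8 CPM, 0.64) and Bhlhe40 (from 264 to 414 CPM, 0.65), a repressor induced by cytokines, rose. The labels give 1 collection time after culture, and the clock phase of the cultures was not tested.

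**Figure D2:**
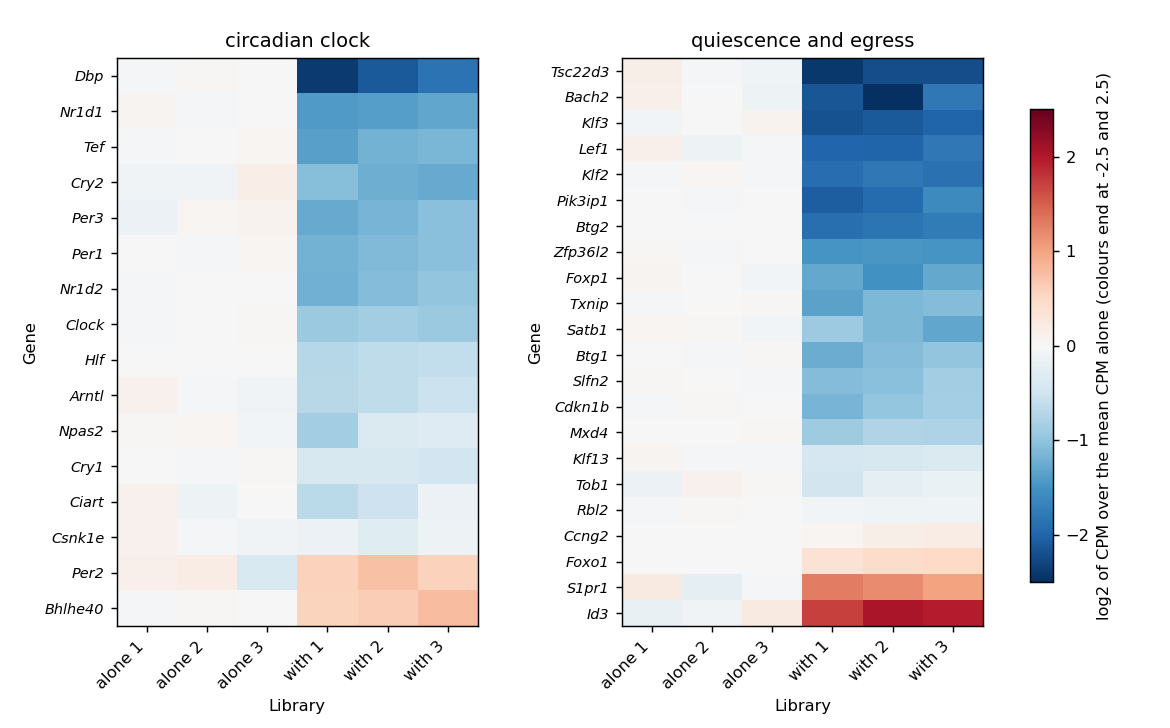
Heat maps of the tested genes of the circadian clock (left, 16 of 17 genes) and of quiescence and egress (right, 22 genes) in 6 libraries, coloured by log2 of CPM over the gene's mean CPM in ILC2s alone, with the colours ending at -2.5 and 2.5. The 3 libraries with eosinophils are blue in most rows, and Per2, Bhlhe40, Ccng2, Foxo1, S1pr1 and Id3 are the rows in red.

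ILC2s lack an antigen receptor but transcribe many genes of its signalling chain. Of 26 such genes 16 fell and 7 rose, or 18 and 4 with library totals, with a median of -0.35. Beside Rasgrp2, the kinase genes Lck (from 23.1 to 10.3 CPM, -1.16) and Fyn (from 279 to 112 CPM, -1.31), the adaptor gene Lat (-1.13), Plcg1 (from 292 to 126 CPM, -1.22), Prkcq (-0.74), Malt1 (from 108 to 40.5 CPM, -1.42) and Nfatc3 (-1.04) fell. Nfatc2 (0.37), Sos1 (0.46) and Ubash3a (0.81) rose. Cd3g rose by 0.22 on the log2 scale but not past the threshold with library totals (0.064, edgeR adjusted p = 0.232).

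Protein synthesis genes rose as classes with modest changes per gene. Over 5 equal groups of coding genes by exon length, the shortest had a median log2 fold change of 0.28 and the longest of -0.15. The part of transcript length in the class values below was not tested. Of 83 cytosolic ribosomal protein genes 78 rose and 2 fell (median 0.56), although pseudogene copies make single members uncertain. Of 78 mitochondrial ribosomal protein genes 61 rose and 5 fell (0.57), or 57 and 10 with library totals, of 19 cytosolic tRNA synthetase genes 17 rose and 1 fell (0.58), and of 21 translation initiation genes 18 rose and 2 fell (0.59). No synthetase passed the 2-fold test, and Aars (from 77.3 to 149 CPM, 0.94) had the largest change while Vars (-0.16) fell. Eif4e, the cap-binding protein gene, rose from 29 to 81.4 CPM (1.48), Eif4a1 from 236 to 589.7 CPM (1.32) and Eif5a from 268 to 799 CPM (1.58). The falls were in 2 inhibitors of initiation, Pdcd4 (from 375 to 179 CPM, -1.07), which blocks EIF4A, and Eif4ebp2 (-0.51), which blocks EIF4E, whereas Eif4ebp1 rose (0.67). Proteasome subunit genes rose in 42 of 47 cases and fell in 1 (median 0.69), or 39 and 5 with library totals, and genes of protein import into mitochondria in 18 of 23 with 2 falls (0.54).

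Folding genes rose in 19 of 21 cases, with a median of 0.86. Hsp90aa1, the inducible HSP90, stood at 124, 122 and 114 CPM alone and 587, 550.4 and 555 CPM with eosinophils (2.23). The mitochondrial chaperonin genes Hspd1 (from 79.8 to 242 CPM, 1.6) and Hspe1 (1.43), all 8 listed subunits of the cytosolic chaperonin that folds actin and tubulin, from Tcp1 (from 118 to 354 CPM, 1.59) to Cct4 (0.35), Hspa4 (1.36) and Hspa9 (1.08) rose. The stress-inducible genes Hspa1a (from 1.45 to 0.428 CPM, -1.77) and Hspa1b (from 2.1 to 0.822 CPM, -1.38), near-identical copies and so uncertain, fell. Of 21 genes of actin, tubulin and lamin 20 rose and 0 fell, 14 of them beyond 2-fold, with a median of 1.62, and Lmna (27.4 ± 1.18 CPM alone and 30.6 ± 2.91 CPM with eosinophils) was the 1 gene that did not pass. Tuba1b, an alpha tubulin, stood at 43, 37.3 and 43.1 CPM alone and 707, 649 and 620.5 CPM with eosinophils (4.0). Stmn1, which controls microtubule turnover, stood at 21.6, 19.9 and 22.8 CPM alone and 288, 282 and 263 CPM with eosinophils (3.69). Actb, beta actin, stood at 2176, 2113 and 2102 CPM alone and 5388, 5346 and 5377 CPM with eosinophils (1.33). All 3 were higher in every library with eosinophils. Tubb5 rose from 365 to 1657 CPM (2.18), Tubb4b from 79.7 to 387 CPM (2.28), Actg1 from 450.4 to 1632 CPM (1.86), Cfl1 from 492 to 1206 CPM (1.29) and the B-type lamin genes Lmnb1 from 57.5 to 237 CPM (2.04) and Lmnb2 from 5.17 to 36.1 CPM (2.81). Tubulin and actin genes have close copies, and reads could be split among them.

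Nucleotide and folate synthesis genes rose in 22 of 25 cases, 12 of them beyond 2-fold, and fell in 1, with a median of 1.11. Mthfd2, of the mitochondrial one-carbon pathway, stood at 14, 13.3 and 15.4 CPM alone and 95.1, 91.2 and 88.2 CPM with eosinophils (2.68). Tyms, which makes thymidylate, stood at 12.1, 12.2 and 12.5 CPM alone and 77.8, 71.3 and 68.5 CPM with eosinophils (2.56). Both were higher in every library with eosinophils. Impdh2 (from 29.3 to 148 CPM, 2.34), Mthfd1l (2.26), Ctps (2.08), Umps (1.46), Ppat (1.36) and Cad (from 52.7 to 132 CPM, 1.33) rose too. Among nutrient transporters 13 of 22 rose and 7 fell. The transferrin receptor gene Tfrc stood at 11.7, 12.4 and 11.4 CPM alone and 175, 158 and 154 CPM with eosinophils (3.78), with groups far apart. The lactate transporter gene Slc16a1 rose from 10.0 to 38.3 CPM (1.93), the leucine transporter gene Slc7a5 from 15.3 to 56.8 CPM (1.9), the glucose transporter gene Slc2a1 from 87.3 to 225 CPM (1.36), the folate carrier gene Slc19a1 from 7.05 to 17.5 CPM (1.31) and the arginine transporter gene Slc7a1 from 38.1 to 83.5 CPM (1.13). The phosphate transporter gene Slc20a1 fell from 222 to 108 CPM (-1.04) and the amino acid transporter gene Slc38a2 from 142 to 116 CPM (-0.3).

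Of 24 genes of homologous recombination and mismatch repair 19 rose, 16 of them beyond 2-fold, and 2 fell, with a median of 2.17. Rad54l stood at 1.93, 3.76 and 1.74 CPM alone and 114, 106 and 92.1 CPM with eosinophils (5.42). Brca1 stood at 5.79, 6.06 and 5.63 CPM alone and 64.3, 61.7 and 59.6 CPM with eosinophils (3.41). Both were far higher in each library with eosinophils than in any without. Exo1 (5.26), Rad54b (4.46), Rad51ap1 (4.25), Chek1 (4.11), Fancd2 (4.05), Bard1 (3.06) and Blm (2.45) rose, while the damage kinase genes Atm (from 91 to 59 CPM, -0.63) and Atr (-0.29) fell. In DNA methylation and chromatin, 15 of 24 rose and 8 fell. The rises were in genes that copy chromatin with DNA, Asf1b (from 3.09 to 73.7 CPM, 4.56), Chaf1a (from 3.24 to 63.8 CPM, 4.3), Chaf1b (1.72), Hells (1.64) and Dnmt1 (from 121 to 331 CPM, 1.45), and in the Polycomb gene Ezh2 (from 49.4 to 194 CPM, 1.97). The falls were in its paralog Ezh1 (from 217 to 127 CPM, -0.78), in Hdac5 (-1.0), in the de novo methyltransferase gene Dnmt3b (-0.59), and in Tet1 (-0.52) and Tet3 (-0.43), whose products oxidize methylcytosine. Replication-dependent histone genes had 17 rises and 4 falls among 24 tested, with 6 to 30 rises across alternatives and 2 falls without ILC2_alone replicate 1 or ILC2_with_EOS replicate 2.

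Genes of cell death divided by role only in part. Of 15 tested BCL2 family genes 6 rose and 6 fell, or 5 and 8 with library totals. Bcl2l11, the killer protein BIM that IL-7 and IL-2 hold down, stood at 97.3, 97.3 and 104 CPM alone and 21.4, 22.6 and 28.1 CPM with eosinophils (-2.05), lower in every library with eosinophils. Bmf (from 27.5 to 13.4 CPM, -1.04), Bid (-0.86) and Bbc3 (-0.69), which also promote death, fell, while Pmaip1 (from 22.5 to 79.2 CPM, 1.81) and the effector gene Bak1 (from 48.7 to 107 CPM, 1.14) rose. Of the survival genes, Bcl2l1 rose from 23.6 to 53.1 CPM (1.18), and Bcl2 (from 266 to 189 CPM, -0.49) and Mcl1 (-0.2) fell. Of 20 p53 targets 12 rose and 5 fell, or 5 and 6 with library totals, so no direction held. Cdkn1a rose from 88.5 to 157 CPM (0.82), and Sesn1 (from 142 to 53.9 CPM, -1.4) and Trp53inp1 (-0.97) fell.

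Receptors for neuropeptides, lipids and purines rose in 11 of 28 tested cases and fell in 16. The receptors of vasoactive intestinal peptide fell, Vipr2 from 261 to 61.7 CPM (-2.08) and Vipr1 from 2.31 to 0.319 CPM (-2.85), as did the CGRP receptor parts Calcrl (-0.32) and Ramp1 (-0.23), while the CGRP gene Calca rose from 8.43 to 98.8 CPM (3.56). Nmur1, the receptor of neuromedin U, rose from 79.7 to 136 CPM (0.77). Both cysteinyl leukotriene receptor genes rose, Cysltr1 at 121, 123 and 126 CPM alone and 360.0, 375 and 398 CPM with eosinophils (1.62) and Cysltr2 from 18.6 to 84.3 CPM (2.18). Among adenosine receptors Adora2b rose from 1.45 to 14.7 CPM (3.33) and Adora2a fell from 29.4 to 17.2 CPM (-0.78), and among receptors of prostaglandin E2 Ptger2 (0.86) and Ptger3 (1.53) rose and Ptger4 (-0.58) and Ptger1 (-0.47) fell. Lpar6 fell from 343 to 91.1 CPM (-1.91). Related receptors of 1 ligand thus changed in opposite directions for adenosine and prostaglandin E2.

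Of 13 chemokine receptor genes 7 rose and 4 fell. Ccr1 rose from 1.6 to 22.7 CPM (3.81), the lymph node homing receptor gene Ccr7 from 0.535 to 10.9 CPM (4.38), Ccr4 from 43.5 to 149 CPM (1.78) and Ccr8 from 45.1 to 116 CPM (1.37). Eosinophils held 417 and 428 CPM of Ccr1 alone and with ILC2s. The falls were in the abundant receptors Ccr2 (from 962 to 534 CPM, -0.85) and Cxcr6 (from 1486 to 1072 CPM, -0.47), in Cxcr4 (-0.58) and in Cxcr5 (-1.88). Integrins had 7 rises and 5 falls among 15, or 5 and 6 with library totals. Beside Itgae, the collagen receptor chain Itga2 (from 25.6 to 8.39 CPM, -1.61), the laminin receptor chain Itga3 (from 29.8 to 11.2 CPM, -1.4) and Itgb5 (-1.23) fell, while Itga4 (from 419.8 to 624 CPM, 0.57) and Itgb1 (from 156 to 245 CPM, 0.65), which form the receptor of VCAM-1 and fibronectin, rose. Itgb8, whose product releases active TGF-beta, had 3 counts alone and 47 with eosinophils, for a ratio of 14.2 (95% interval of counting 4.58 to 71.5). Among 26 matrix and protease genes 15 rose and 3 fell, or 15 and 6 with library totals and 17 and 5 of 27 without ILC2_alone replicate 1, with Loxl2, a collagen cross-linking enzyme, from 3.25 to 62.7 CPM (4.29), P4ha1 (1.27), P4ha2 (from 20.1 to 66.4 CPM, 1.72), Thbs1 (1.92), Fn1 (2.58) and Adam19 (from 141 to 379.5 CPM, 1.42) rising and Mmp9 and Mmp11 (-2.1) falling.

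In the TGF-beta pathway 10 of 18 fell and 6 rose. The receptor genes Tgfbr2 (from 1019.7 to 536 CPM, -0.93) and Tgfbr3 (-2.31), the inhibitors Smad7 (from 56.6 to 26.2 CPM, -1.11), Ski (-0.64), Skil (-0.43) and Tgif1 (-2.1) and the shared signal carrier Smad4 (-0.66) fell. Smad2 (0.44), Smad3 (0.37) and the ligand genes Tgfb1 (0.38) and Tgfb3 rose. In the Notch pathway 5 of 14 rose and 5 fell, or 5 and 8 with library totals. Notch1 rose from 70.4 to 184 CPM (1.39), its nuclear partner Rbpj from 599 to 1404 CPM (1.23) and the target gene Hes1 from 1.06 to 3.78 CPM (1.83), while Notch2 (from 935 to 580.2 CPM, -0.69) and the ligand gene Jag1 (from 84.9 to 35 CPM, -1.28) fell.

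Genes known as glucocorticoid targets did not move as 1 group, with 9 rises and 4 falls among 15, or 7 and 5 with library totals. Sgk1, Tsc22d3 and Per1 fell as given above and Klf9 fell too (-0.77), while Irs2 (1.81) and Dusp1 (0.96) rose. The metallothionein genes, which bind zinc and copper, rose, with Mt1 at 4.03, 3.86 and 4.47 CPM alone and 68, 64.6 and 72.2 CPM with eosinophils (4.04) and Mt2 from 0.964 to 20.7 CPM (4.4). Cyp11a1, which makes pregnenolone from cholesterol in the first step of steroid synthesis, stood at 33.1, 36.7 and 33.9 CPM alone and 699, 734 and 709 CPM with eosinophils (4.37). Each library with eosinophils was far above each library without for Mt1 and Cyp11a1. Lysosome and autophagy genes fell in 13 of 27 cases and rose in 9, or 17 and 5 with library totals. Sqstm1 (from 478 to 278 CPM, -0.78), an autophagy receptor gene, Ulk1 (-0.84) and Tfeb (-0.74) fell, and the cholesterol carrier gene Npc2 (from 253 to 607 CPM, 1.26) and Ctsb (from 171 to 308 CPM, 0.85) rose. Of 12 cytotoxic granule genes 7 rose and 3 fell, nearly all at low levels, such as Gzmb (from 2.08 to 4.89 CPM, 1.22) and Prf1 (from 1.32 to 3.07 CPM, 1.21), with similar granzyme copies uncertain.

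**Figure D3:**
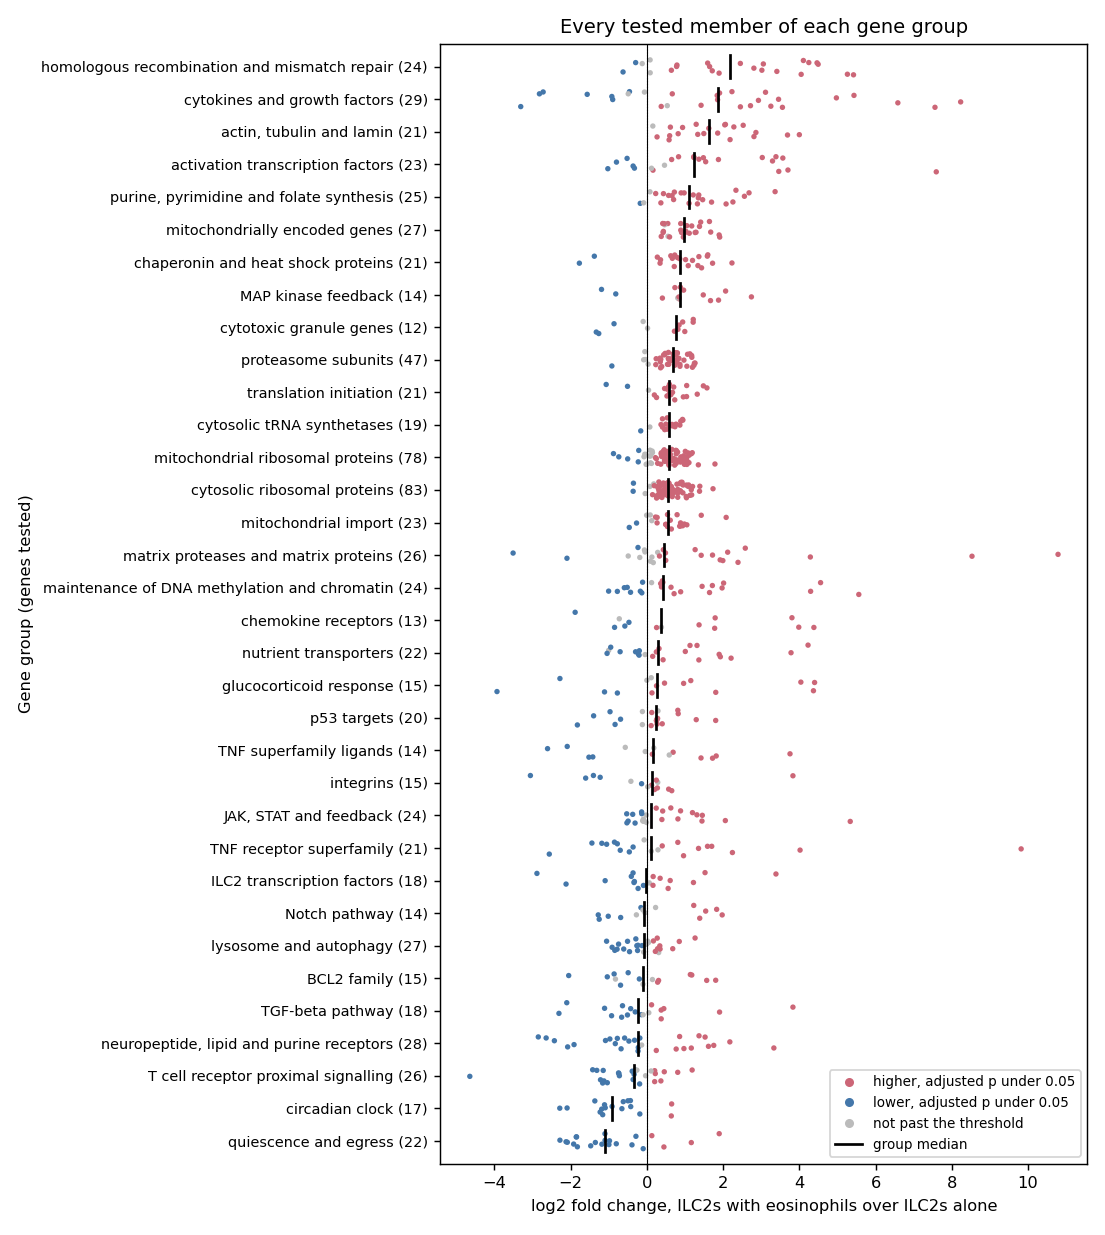
Log2 fold change (with eosinophils over alone) of every tested gene in 34 gene groups, sorted by group median (black bars), with red for genes called higher, blue for genes called lower and grey for genes not past the threshold. Repair genes have the highest median (2.17) and quiescence genes the lowest (-1.10), and groups near 0 hold members far to both sides.

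Long noncoding RNA genes fell more often than they rose. Of 1188 tested, 171 rose and 507 fell, 72 and 110 of them beyond 2-fold (52 and 49 with DESeq2, 65 and 68 with limma-voom), with a median of -0.47, whereas of 11965 protein-coding genes 4807 rose and 4350 fell with a median of 0.03. At 1 to 10 CPM in the higher group, 99 of 734 long noncoding genes rose and 345 fell, against 768 and 692 of 2279 coding genes. At 100 CPM or more 11 of 23 long noncoding genes rose and 11 fell. More also fell than rose among the 463 long noncoding genes whose exons share no base with another gene, of which 76 rose and 201 fell. Across alternatives 132 to 177 rose and 435 to 592 fell. Some long noncoding genes were among the rises. Mir155hg, the host transcript of miR-155 of lymphocyte activation, stood at 0.284, 0.376 and 0.455 CPM alone and 13.8, 15.3 and 12.5 CPM with eosinophils (5.17). AW112010, an inflammation-induced transcript, stood at 178, 169.9 and 165 CPM alone and 597, 619.5 and 621 CPM with eosinophils (1.84). AI506816 stood at 15.9, 15.7 and 17 CPM alone and 211, 192 and 171 CPM with eosinophils (3.56). These 3 were higher in each library with eosinophils. B230217O12Rik went the other way at 22.5, 22 and 20.4 CPM alone and 1.6, 1.68 and 2.03 CPM with eosinophils (-3.6), as did C030034L19Rik from 76.1 to 27.2 CPM (-1.48). Coding genes also differed by length. Over 5 equal groups from the shortest to the longest annotated exon length, the median log2 fold change went through 0.28, 0.12, 0.0083, -0.063 and -0.15, the share that rose from 51.2% to 30.6% and the share that fell from 22.6% to 48.4%. The part of transcript length or RNA quality in these values was not tested.

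**Figure D4:**
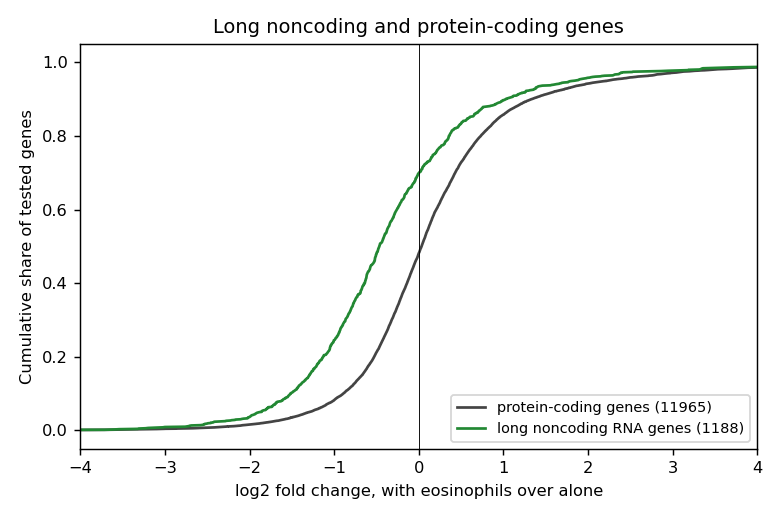
Cumulative share of tested genes against log2 fold change (with eosinophils over alone, shown from -4 to 4) for 11965 protein-coding and 1188 long noncoding RNA genes. The noncoding curve lies to the left, with medians of -0.47 and 0.03.

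Some genes were found in 1 group only. At 0 counts in all 3 libraries alone and at least 30 counts in the libraries with eosinophils stood 26 genes, and 3 genes showed the reverse. Folds are lower bounds against 3 counts over a group. Prss35, a serine protease relative, had 94, 107 and 71 counts with eosinophils and was at least 82.4-fold higher. Adm, which encodes the vasodilator adrenomedullin, had 44, 18 and 38 (at least 30.3-fold higher), Frzb, a Wnt antagonist, 31, 24 and 25 (at least 24.2-fold higher) and Il24, of the IL-10 family, 8, 24 and 10 (at least 12.7-fold higher). Prss35, Frzb and Il24 had 0 counts in all eosinophil libraries, so the cocultured ILC2s were the samples that held them. The neutrophil elastase gene Elane had 31, 11 and 9 counts and the related gene Prtn3 17, 6 and 13. Eosinophils alone and with ILC2s had 2 and 0 counts of Elane and 11 and 4 of Prtn3. In 2 of the 26 genes, Ccl22 and Anpep, eosinophil libraries held more counts than the cocultured ILC2s. Ccl24, the gene with the most counts of the 26, had 283 counts in cocultured ILC2s. It had 136 and 233 in eosinophils alone and with ILC2s. Slc16a9, a transporter gene, went to 0 from 10, 16 and 20 counts, at least 16.9-fold lower. Across the whole comparison, 15% of the 1469 genes that rose beyond 2-fold had a higher mean in eosinophils than in cocultured ILC2s. The share was 49.9% of the 745 that fell and 35% of all genes tested. The level in cocultured ILC2s entered both the calls and these shares, so their order follows at least in part from the selection. No source of RNA can be read from it.

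Absolute gains and losses of CPM and shares of all counts were compared as well. By absolute gain, the 10 largest were Eef1a1 (from 7264 to 12111 CPM), Actb, Pkm (from 514 to 3529.7 CPM), Gapdh (from 316 to 2738 CPM), mt-Co1 (from 5471 to 7347 CPM), Ldha (from 423 to 2313 CPM), Hsp90ab1 (from 735 to 2427 CPM), Aldoa (from 884 to 2416 CPM), Eno1 (from 286 to 1793 CPM) and mt-Nd1 (from 879 to 2338 CPM), and 5 of these are enzymes of glycolysis and lactate formation. The 10 largest losses were Ahnak (from 3448 to 1873 CPM), Il7r (from 1655 to 282 CPM), Arhgap45 (from 2277 to 1071 CPM), Sorl1 (from 1763 to 620.5 CPM), Txnip, Shisa5 (from 1616 to 755 CPM), Samhd1 (from 1378 to 542 CPM), Macf1 (from 1716 to 882 CPM), Arhgef1 (from 1408 to 624 CPM) and Zfp36l2. Il7r, the IL-7 receptor, stood at 1660.1, 1667 and 1639 CPM alone and 253, 280.2 and 312 CPM with eosinophils, and Samhd1, which degrades nucleotides in resting cells, at 1384, 1375 and 1374 CPM alone and 508, 543 and 574 CPM with eosinophils, both without overlap. As a description, the 1469 genes called higher beyond 2-fold took 4.99% of counts alone and 15.7% with eosinophils, and the 745 called lower 6.48% and 2.10%. Genes of actin, tubulin and lamin took 0.954% ± 0.0183 of counts alone and 1.90% ± 0.0152 with eosinophils (SD, n = 3), folding genes 0.421% ± 0.00725 and 0.817% ± 0.0216, and cytokines 0.212% ± 0.00132 and 0.599% ± 0.00784. Mitochondrially encoded genes took 1.14% ± 0.0116 and 1.59% ± 0.0470, although several of them were near 0 in all libraries and their counting is uncertain. Quiescence genes took 0.707% ± 0.00204 and 0.317% ± 0.0144, clock genes 0.235% ± 0.00267 and 0.138% ± 0.00648, and long noncoding genes 1.47% ± 0.0448 and 1.29% ± 0.0552. In all 37 classes measured the 3 libraries of 1 group lay on 1 side of the other 3. A two-sided exact permutation test gave p = 0.1 for each (0.1 after adjustment), the smallest that 3 against 3 allows, so no share could pass 0.05.

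**Figure D5:**
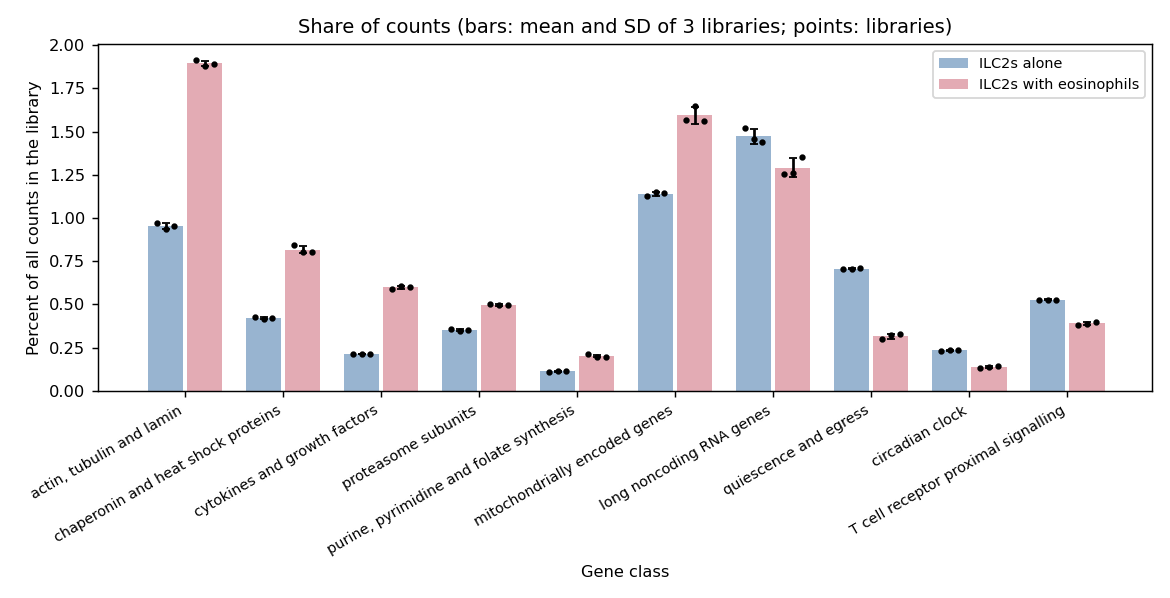
Percent of all counts in a library taken by 10 gene classes in ILC2s alone (blue) and with eosinophils (red), with bars for the mean, error bars for the SD of 3 libraries and points for libraries. Actin, tubulin and lamin genes go from 0.954% to 1.90% and quiescence genes from 0.707% to 0.317%.

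RefSeq promoters were matched by symbol for 10024 of the tested genes, 1062 of those higher and 487 of those lower beyond 2-fold, as windows from 250 bases before to 50 after the start, searched on both strands. CCAAT occurred in 46.5% of the promoters of genes that were higher, 38.0% of those that were lower and 38.6% of all tested. TTTGAA occurred in 19%, 12.1% and 12.1%, and TTTNGCGC (E2F) in 4.33%, 1.23% and 2.48%. ACGTG, the core of the hypoxia response element, occurred in 28.0%, 19.3% and 26.0%, and overlaps CACGTG, found in 10.1%, 8.21% and 10.1%. TGANTCA occurred in 5.65%, 5.95% and 4.59%, AGATAA in 6.50%, 7.60% and 6.36%, TTCNNNGAA (STAT) in 7.06%, 6.78% and 6.76% and TATAAA in 8.29%, 9.86% and 6.75%. The GC content was 60.0%, 59.1% and 60.9%. The first 3 of these motifs, known from promoters of cell cycle genes, thus had higher shares among the genes that were higher. The letters of AP-1, GATA, STAT and the TATA box were above the share of all tested genes on both sides, some of them only slightly. These shares were not tested.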

How the data were processed

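RNA-seq read counts per gene were analysed for 6 of the 12 libraries, with the 6 eosinophil libraries used for levels only. The values are the authors' deposited whole-number counts. Per the submitters' processing notes, the tools were STAR 2.5.2b, Subread 1.5.2 with featureCounts, Trimmomatic 0.36 and bcl2fastq 2.17, and the build was mm10. Neither the strand setting nor the annotation release nor the rule for multi-mapping reads is given in the sources used here. GENCODE M21 on the same build gave 49056 of 49315 genes a symbol.

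Genes passing filterByExpr in the 6 libraries were fitted in edgeR 4.0.16 (R 4.3.3) with TMM scaling, a group term and the quasi-likelihood test, with Benjamini-Hochberg adjustment over all 14438 genes and a threshold of 0.05. A second test asked for a change beyond 2-fold (glmTreat). Standard errors are the log2 fold change divided by the square root of F. A simulation from the pooled levels and the spread of this comparison changed 197 of 14167 genes, in random directions. Of its 1.5-fold, 2-fold and 4-fold changes, 76.9%, 83.3% and 97.0% were recovered, and the 2-fold test called 0.0%, 0.0% and 89.4%. Unchanged genes made up 5.59% of all its calls. In the data 72.4% of genes were called, so this simulation cannot give the share of false calls or test the scaling here. Shares of counts were compared by exact permutation. Promoter sequences are from RefSeq (GRCm38.p6). No library was a duplicate, since the chi-square of each pair within a group was 2.57 to 5.76 per degree of freedom.

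The members and the 43 gene lists were chosen with earlier results of these data known. Named genes were Il13, Lif, Irf4, Tnfrsf8, Gata3, Il1rl1, Il7r and Il5, the 15 highest and 15 lowest called log2 fold changes with a mean of at least 8 CPM over the 6 libraries and no overlap, the 10 largest gains and losses of CPM, and up to 4 called members per list by smallest p with at least 1 CPM. All other genes in the text were picked with their values in view. No value is given here for Il5, which shares 27.1% of its exon bases with another annotated gene. A few genes are not reported here by name, though counts over lists include them, and 1 of them was left out of the NK and other ILC marker sum and of the clock heat map. The patterns that recognize ribosomal protein and proteasome genes were corrected after their members were seen. Alternatives were DESeq2 1.42.0, limma-voom 3.58.1, 3 other scalings, 2 other filters, a replicate block, all 12 libraries in 1 fit and leaving out each library.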

Additional observations from a re-analysis of the deposited data

How the results depend on the processing

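The counts of called genes stayed within 1.5 times of 5315 higher and 5139 lower under all 15 alternatives, with DESeq2 at 5060 and 4901 and limma-voom at 5348 and 5142. Leaving out each library gave 5144 to 5297 higher and 4869 to 5141 lower, and 1412 to 1496 higher and 650 to 753 lower beyond 2-fold. DESeq2 gave 1195 and 503 beyond 2-fold. With library totals the median of all genes was -0.15 and the calls were 4385 higher and 6330 lower (40.9% higher), upper quartile scaling moved it to -0.064 (4881 and 5632), and no low-count filter to -0.11 over 30791 genes.

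With a replicate block 5318 genes were higher and 5103 lower, and 1463 and 737 beyond 2-fold. The deviations of same-numbered samples from their group means correlated at -0.0069, 0.00043 and -0.0084 over the tested genes. Such values cannot show whether these samples shared mice or cultures, which the labels do not give. The block changed no call among the named genes.

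Of 361 named genes, 353 kept their direction and call under every alternative that tested them, and so did the direction of all 37 shares of counts. The cause of the 8 exceptions was not tested. With library totals Il1rl1 was at -0.096 (edgeR adjusted p = 0.0135), Id2 at -0.094 (0.0421), Ccng2 at -0.027 (0.568), Lmna at -0.00040 (0.997), Cd3g at 0.064 (0.232) and Tnfsf8 at -0.20 (0.00495). With upper quartile scaling Il1rl1 was at -0.0067 (edgeR adjusted p = 0.88), Id2 at -0.0047 (0.93) and Ccng2 at 0.062 (0.188). Without a low-count filter Il1rl1 rose (0.081, edgeR adjusted p = 0.0303) and Gata3 no longer passed (0.137), nor did Gata3 in the fit of all 12 libraries (0.287). Il4 ran from -0.14 to 0.048 when each library was left out, above 0 without ILC2_alone replicate 3 (0.0022, edgeR adjusted p = 0.991) or ILC2_with_EOS replicate 2 (0.048, 0.779). Il1rl1 (0.11, edgeR adjusted p = 0.00705) and Id2 (0.12, 0.0108) rose without ILC2_with_EOS replicate 1, and Lmna (0.23, 0.0149) without replicate 3 of that group. The fall of Gata3 was lost without ILC2_alone replicate 3 or ILC2_with_EOS replicate 1 or 2 (edgeR adjusted p 0.0728 to 0.134).

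Counts were lowest for genes under 1 CPM, of which 27.9% were called, and with 3 samples a group no exact test of a share can go below p = 0.1.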
